A study of Homo sapiens with 12 samples.

Results

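The genes described here encode the nuclear pore complex and the receptors that carry cargo through it. They were taken from the deposited gene table as the protein-coding genes whose symbols start with NUP, IPO, TNPO or XPO and a digit, or with KPNA or KPNB. This gave 45 of 58302 listed genes (19847 of them protein coding), namely 22 pore genes and 23 receptor genes. All 45 matched a RefSeq gene by symbol and lay on 18 chromosomes. The rule read symbols and no measured value, but the set was chosen for description with earlier results of these data known.

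The nuclear pore is a large ring built of many copies of its nucleoporins, of which some form a scaffold and others fill the channel with flexible phenylalanine-glycine repeats. Import receptors bind a nuclear localisation signal in the cytoplasm and let go of it when they meet Ran loaded with GTP in the nucleus, while exportins bind their cargo together with Ran-GTP. Messenger RNA mostly leaves by a different carrier, NXF1 with NXT1. In colorectal and other tumours XPO1 and KPNA2 are often studied, the first because export inhibitors bind it.

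The study worked with DLD1, an established human colorectal cancer line, at passage 5. Its 12 libraries fell into 4 groups of 3 replicates: immunoprecipitate and input of cells with a short hairpin RNA against NAT10 (shNAT10), and immunoprecipitate and input of cells with the control hairpin shNC. NAT10 is the acetyltransferase that makes N4-acetylcytidine (ac4C) in RNA, and immunoprecipitation with an ac4C antibody after fragmentation of total RNA to 100 to 200 nt enriches acetylated pieces (acRIP-seq). The sources used here do not say how the hairpins were delivered, how many sequences were used, or whether the lines were clones and the replicates grown apart. The p-values below therefore measure the spread between libraries only.

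Gene levels were given as FPKM, a unit relative to gene length and library depth, and covered the 6 input libraries. The immunoprecipitated libraries were not analysed one by one. Acetylated regions came from the authors' deposited table of differential peaks.

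Before the genes themselves, the libraries had to be examined. Fragments on genes ranged from 1224104 to 1303818 in the libraries labelled shNAT10 and from 2636810 to 2758165 in the shNC libraries. NAT10 itself was listed at 0, 28.1 and 31.4 FPKM in the libraries labelled shNAT10 (0, 221 and 197 fragments), against 1.24, 3.95 and 2.89 FPKM in the shNC libraries (22, 68 and 52 fragments). Its log2 difference was 1.48 ± 1.86 (SE; limma adjusted p = 0.754, exact two-sided permutation p = 0.40, where 3 against 3 cannot go below 0.1). Replicates 2 and 3 of shNAT10 thus went against their label, and "shNAT10" below means the libraries labelled so. Across the 10517 genes tested, log2 levels correlated across genes at 0.38 to 0.41 (Pearson) between replicates of a group and at 0.37 to 0.40 between libraries of different groups, as a description only. Epithelial markers were present: KRT8, an epithelial keratin, stood at 5643, 5573 and 5866 FPKM in shNAT10 against 3112, 3774 and 3294 FPKM in shNC, while EPCAM, an epithelial adhesion protein, stood at 38.3, 80.3 and 128 FPKM in shNAT10 against 226, 370 and 262 FPKM in shNC. Of 12 colon epithelial genes none was at 0 in all 6 inputs, and of the 11 tested 5 had a higher and 6 a lower mean in shNAT10, with 0 past the limma test. Of 9 fibroblast and muscle markers 2 were above 0 in shNC, and their summed level was 77.2, 25.1 and 14.4 FPKM in shNAT10 against 3.81, 0 and 0 FPKM in shNC. TAGLN stood at 68.9, 2.04 and 1.49 FPKM in shNAT10 and DES at 0.292, 0.271 and 4.74 FPKM in shNAT10, both at 0 in all shNC libraries. PDGFRB (7.97 FPKM in shNAT10 replicate 1), DCN (3.18 FPKM in shNAT10 replicate 3) and LUM (2.22 FPKM in shNAT10 replicate 3) were likewise at 0 in shNC. These 3 values rested on at least 79, 49 and 1 fragments. In shNAT10, TAGLN had at least 375, 12 and 7 fragments and DES at least 1, 1 and 14. ACTA2 had 0, 22 and 1.4 FPKM in shNAT10 against 3.67, 0 and 0 FPKM in shNC, and the collagens COL1A1, COL1A2 and COL3A1 were at most 0.898 FPKM in any library. The part of these markers in the values below was not tested.

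Pore and receptor genes together took 0.263%, 0.414% and 0.281% of fragments in shNAT10 and 0.358%, 0.349% and 0.344% in shNC. Summed over the 45 genes, the level was 418 ± 89.4 FPKM in shNAT10 and 370 ± 34.0 FPKM in shNC (SD, n = 3 each). The 22 pore genes summed to 206 ± 37.7 FPKM in shNAT10 and 165 ± 32.4 FPKM in shNC, and the 23 receptor genes to 212 ± 53.7 FPKM in shNAT10 and 206 ± 47.2 FPKM in shNC. For all 3 sums the libraries of the groups overlapped. The total behind the FPKM values was not in one proportion to the fragments on genes. It was 1.07, 1.21 and 0.979 times these in shNAT10 and 1.23, 1.25 and 1.27 times in shNC. Of the sums given here and below, only that of the exportins was also taken on the TPM scale, so no difference between the hairpins is read from the others. The coefficient of variation of the sum over all 45 was 21.4% in shNAT10 and 9.18% in shNC, and a sum over many genes varies less than single genes by averaging alone. The median coefficient over single genes with a group mean of at least 1 FPKM was 138% in shNAT10 (28 genes) and 99.3% in shNC (33 genes).

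Single genes were patchy. Of 270 values, 91 (33.7%) were listed at 0, which was 54 of the shNAT10 values (40.0%) and 37 of the shNC values (27.4%). Pore genes were at 0 in 37.1% of values and receptor genes in 30.4%. Only 18 genes, 8 of the pore and 10 receptors, were above 0 in all 6 inputs. NUP210L, NUP85, KPNA7 and IPO4 were at 0 in all 6. NUP85 is a scaffold subunit of the pore that dividing cells need, so its values are given only as a listing at 0. Another 4 genes were above 0 in 1 library each: NUP37 and IPO11 in shNAT10 replicate 1, NUP133 in shNC replicate 1 and NUP62CL in shNC replicate 3. Zeros also stood beside high values in the same group. Of 24 genes with at least 100 fragments in some shNAT10 library, 14 had 5 or fewer in another shNAT10 library, and of 29 such genes in shNC, 13 did. The same count was not made over all coding genes, so it is not read as a trait of transport genes. The 37 transport genes with a mean of at least 1 FPKM were at 0 in 24.3% of values, and the 8140 protein-coding genes past the same filter in 34.5%.

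**Figure D1:**
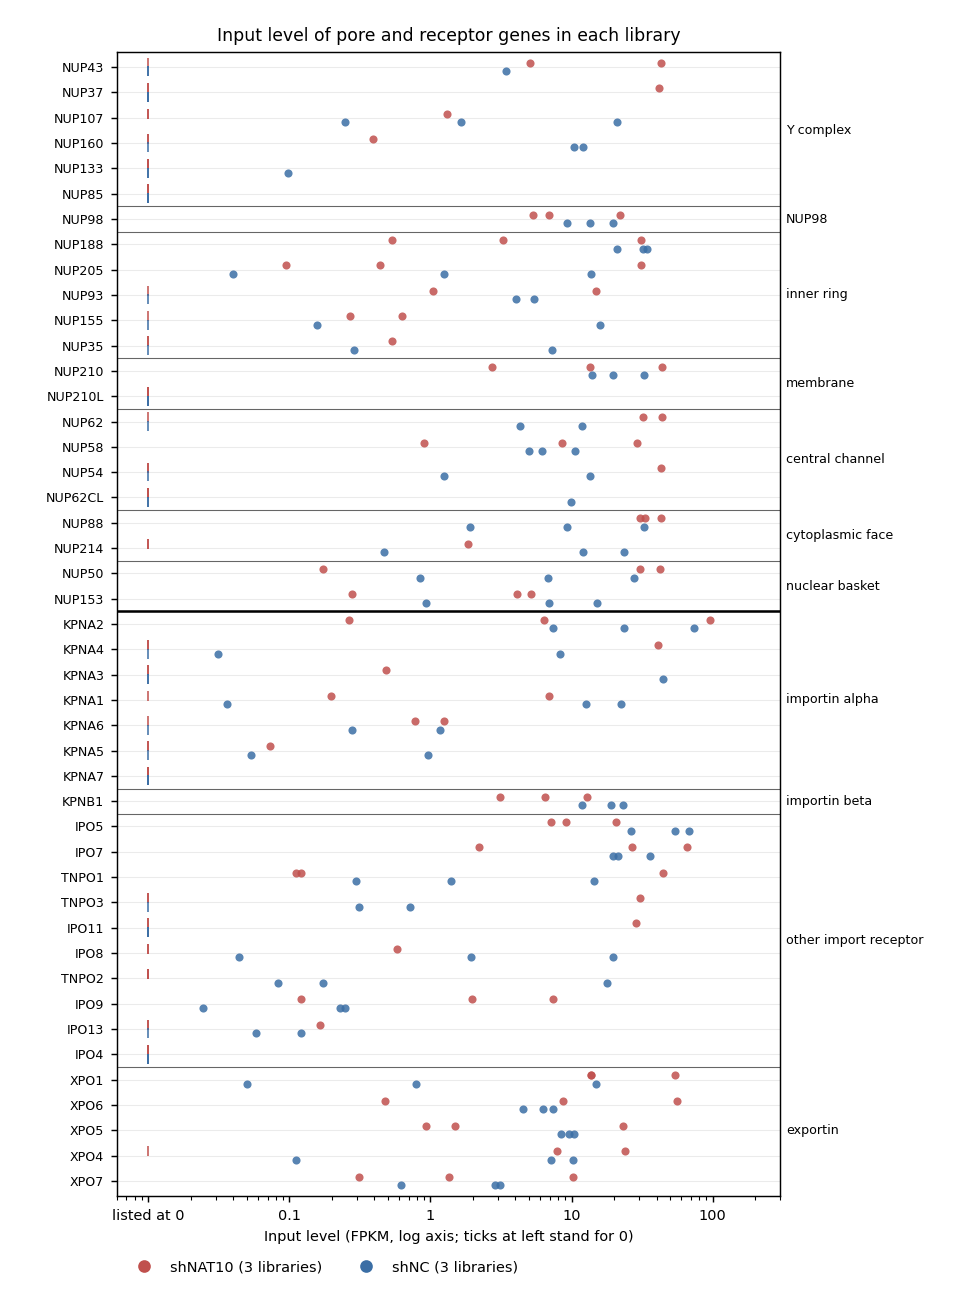
Level of each of the 45 genes in the 6 inputs (FPKM on a log axis; rows are genes grouped by role, red points are the 3 shNAT10 libraries, blue points the 3 shNC libraries, and ticks at the left edge stand for a listing at 0, which overlie each other where several libraries are at 0). The points of most genes spread widely within both groups, as for KPNA2 (0.266 to 95.2 FPKM in shNAT10 and 7.34 to 74.2 FPKM in shNC), and the groups do not overlap for IPO5 and TNPO2.

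Among the scaffold genes of the pore, the Y complex was the least evenly recorded, with 24 of 36 values at 0. It forms the outer rings on both faces of the pore, and its mean levels ran from 0 (NUP85) to 8.62 FPKM (NUP43). NUP43 stood at 0, 43.2 and 5.09 FPKM in shNAT10 and at 0, 3.43 and 0 FPKM in shNC. NUP37 stood at 41.4 FPKM in a single shNAT10 library, on at least 67 fragments, and at 0 in the 5 others. NUP160 had 0, 0 and 0.389 FPKM in shNAT10 and 0, 12 and 10.4 FPKM in shNC. In each of these genes the 2 groups shared a listing at 0, so they overlapped. NUP98, which encodes both a channel nucleoporin and, by self-cleavage of a precursor, the Y-complex subunit NUP96, was above 0 throughout: 5.30, 21.9 and 6.91 FPKM in shNAT10 against 19.8, 9.34 and 13.5 FPKM in shNC.

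The inner ring links the membrane to the channel, and its summed level was 16.6, 34.4 and 32.9 FPKM in shNAT10 against 58.3, 25 and 51.8 FPKM in shNC. Its most abundant gene was NUP188, a large scaffold subunit, at 0.537, 3.24 and 31.1 FPKM in shNAT10 (6, 39 and 300 fragments) against 34.0, 20.9 and 32.2 FPKM in shNC (924, 552 and 887 fragments). Replicates 1 and 2 of shNAT10 lay well below every shNC library, and replicate 3 lay among them. The log2 difference of NUP188 was -2.31 ± 1.71 (SE; limma adjusted p = 0.754). NUP93, which anchors the channel proteins, had 14.8, 0 and 1.05 FPKM in shNAT10 and 0, 4.05 and 5.40 FPKM in shNC, a difference of 0.00 ± 1.86 on the log2 scale (SE). The 3 other inner ring genes (NUP205, NUP155 and NUP35) had mean levels between 1.34 and 7.80 FPKM. NUP210, a glycoprotein that spans the pore membrane, had the second highest mean of the pore genes, with 2.73, 43.6 and 13.5 FPKM in shNAT10 against 13.9, 19.5 and 32.7 FPKM in shNC.

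In the central channel, the NUP62 complex carries the phenylalanine-glycine repeats that receptors pass through. The summed level of the 4 central channel genes (NUP62, NUP54, NUP58 and NUP62CL) was 75.5, 29.1 and 52.4 FPKM in shNAT10. In shNC it was 6.23, 14.8 and 41.3 FPKM, where NUP62CL gave 9.85 FPKM of the replicate 3 sum. NUP62 stood at 31.9, 0 and 43.8 FPKM in shNAT10 against 0, 4.30 and 11.9 FPKM in shNC, so the shNAT10 libraries held both the highest values and a 0. NUP58, its partner, was recorded in every library, at 0.898, 29.1 and 8.57 FPKM in shNAT10 and 4.99, 10.5 and 6.13 FPKM in shNC. The spread of NUP58 in shNC lay inside its spread in shNAT10.

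At the cytoplasmic face, NUP88 and NUP214 form a pair that helps the final steps of export. NUP88 had the highest mean of the pore genes (25.1 FPKM), with 33.0, 30.5 and 43.2 FPKM in shNAT10 and 1.90, 32.5 and 9.21 FPKM in shNC. It was the steadiest gene in shNAT10, with a coefficient of variation of 18.9%. NUP214 had 0, 0 and 1.85 FPKM in shNAT10 (0, 0 and 29 fragments) against 23.6, 12.1 and 0.469 FPKM in shNC (1043, 517 and 21 fragments). A single shNC library kept each pair of groups overlapping: replicate 2 for NUP88 and replicate 3 for NUP214. The log2 difference was 1.86 ± 1.61 for NUP88 and -2.46 ± 1.87 for NUP214 (SE; limma adjusted p = 0.754 for both). In the nuclear basket, NUP50, a cofactor that helps release importin alpha from its cargo, stood at 0.173, 42.0 and 30.3 FPKM in shNAT10 against 6.82, 27.9 and 0.842 FPKM in shNC, and each group held 1 library near 0.

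Turning to the receptors, the most abundant of the whole set was KPNA2, an importin alpha that bridges cargo to importin beta, with a mean of 34.5 FPKM. Its values varied widely, at 6.42, 95.2 and 0.266 FPKM in shNAT10 and 23.7, 74.2 and 7.34 FPKM in shNC. Replicate 2 was the highest in both groups, but libraries of the same replicate number showed no shared deviation across genes. The other importin alphas had means between 0 (KPNA7) and 8.23 FPKM (KPNA4), and KPNA6 had 1.25, 0 and 0.781 FPKM in shNAT10 against 0.277, 0 and 1.17 FPKM in shNC. KPNB1, importin beta itself, was steadier, with 3.09, 6.52 and 12.8 FPKM in shNAT10 and 18.9, 11.8 and 23.1 FPKM in shNC. Its groups met only between 11.8 and 12.8 FPKM, and its log2 difference was -1.29 ± 1.73 (SE; limma adjusted p = 0.777).

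IPO5, an importin of ribosomal proteins and histones, was the better recorded of 2 receptors whose groups did not overlap. It stood at 7.14, 20.8 and 9.06 FPKM in shNAT10 (96, 302 and 105 fragments) against 67.5, 26.2 and 54.2 FPKM in shNC (2210, 831 and 1796 fragments). All shNAT10 values lay below all shNC values, but the gap between 20.8 and 26.2 FPKM was small. The log2 difference was -1.95 (95% interval -4.99 to 1.10; limma adjusted p = 0.754), and the exact two-sided permutation p was 0.10, the smallest that 3 against 3 can give. TNPO2, a transportin for RNA-binding proteins that was chosen for mention after its values were seen, was at 0 in all 3 shNAT10 libraries and at 17.9, 0.173 and 0.0830 FPKM in shNC. Its non-overlap rested on 4 and 2 fragments in shNC replicates 2 and 3. Groups in which every shNAT10 value lay below every shNC value made up 6.72% of all 10517 tested genes (707), and 2 of the 37 tested transport genes were among them. The reverse order made up 2.89% of tested genes (304) and 0 of the 37.

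IPO8, a close relative of IPO7, had 0, 0.578 and 0 FPKM in shNAT10 and 19.8, 0.0440 and 1.94 FPKM in shNC. IPO9, a carrier of histones and actin, was among the lowest of the tested genes, at 0.121, 1.96 and 7.36 FPKM in shNAT10 (2, 35 and 105 fragments) against 0.248, 0.230 and 0.0245 FPKM in shNC (10, 9 and 1 fragments). The low shNAT10 replicate 1 made its groups overlap. IPO7, a carrier of ribosomal proteins and histone H1, was well recorded, at 26.9, 65.8 and 2.19 FPKM in shNAT10 against 19.6, 35.7 and 21.4 FPKM in shNC. The shNC values of IPO7 lay close together, with a coefficient of variation of 34.6%, and inside the range of shNAT10.

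IPO7 is shown here with the sequence around its start because it was the single transport gene with a deposited ac4C peak in the 5′ UTR, and that peak began at base 9384652, the annotated start of the RefSeq transcript. The line below gives chr11:9384402-9384681 on the plus strand (RefSeq, GRCh38.p14), that is 250 bases before the start and 30 after it. Capitals mark the first 30 bases of the transcript, all within the first block of the peak.
IPO7: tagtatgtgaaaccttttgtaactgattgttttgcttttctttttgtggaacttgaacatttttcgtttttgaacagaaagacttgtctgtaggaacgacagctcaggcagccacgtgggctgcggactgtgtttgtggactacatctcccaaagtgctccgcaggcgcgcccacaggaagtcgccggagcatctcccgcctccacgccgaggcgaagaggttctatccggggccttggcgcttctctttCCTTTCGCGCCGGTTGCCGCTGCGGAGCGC
The window had a GC content of 55.3%. The palindrome CACGTG, searched for as an exact match, which reads the same on both strands, lay 138 nt before the start. The same motif was present in 6 of the 39 transport genes with a RefSeq promoter window (15.4%; NUP188, IPO7, KPNA3, IPO4, TNPO2 and NUP50) and in 8.94% of 14746 coding genes over windows of 250 bases before to 50 after the start. The median GC content was 63.0% in both sets. These matches describe letters and not binding.

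Exportins were recorded in nearly every library, with 1 of 30 values at 0. XPO1, the main exportin for proteins with a leucine-rich export signal, stood at 54.1, 13.8 and 13.8 FPKM in shNAT10 (881, 242 and 194 fragments) against 0.783, 14.9 and 0.0498 FPKM in shNC (31, 572 and 2 fragments). A single shNC library, replicate 2, lay among the shNAT10 values. The log2 difference of 2.89 ± 1.80 (SE) was the highest among the 37 tested genes, and its adjusted p was 0.754 by limma. XPO6, the exportin of actin and profilin, had 8.76, 55.6 and 0.473 FPKM in shNAT10 and a narrow 7.36, 4.52 and 6.28 FPKM in shNC. XPO4, an exportin of a translation factor, had 24.0, 7.88 and 0 FPKM in shNAT10 against 10.2, 7.13 and 0.111 FPKM in shNC. The exportin of precursor microRNAs, XPO5, singled out after its values were seen, was the steadiest transport gene in shNC, with 8.43, 9.54 and 10.4 FPKM and a coefficient of variation of 10.5%, whereas its shNAT10 values were 0.929, 1.49 and 23.1 FPKM. The sum over the 5 exportins was 88.1, 80.2 and 47.7 FPKM in shNAT10 against 29.7, 36.7 and 20.0 FPKM in shNC. On this scale every shNAT10 sum lay above every shNC sum, but not on the TPM scale, where the values were 85.6, 80.8 and 37.6 in shNAT10 and 32.1, 38.6 and 23.9 in shNC. A different gene led each shNAT10 sum: XPO1 in replicate 1, XPO6 in replicate 2 and XPO5 in replicate 3. These family sums were looked at for all 11 roles and carry no test.

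The comparison of hairpins asks whether input mRNA of the transport machinery differed when NAT10 was targeted. None of the 37 tested transport genes (19 pore and 18 receptor) passed limma at an adjusted p under 0.05, and 0 had an unadjusted p under 0.05. Of all 10517 genes tested, 20 passed (0.190%) and 389 had an unadjusted p under 0.05 (3.70%), and none of the 8140 coding genes passed. The smallest adjusted p of a transport gene was 0.754. Among the pore genes, 9 had a higher mean in shNAT10 and 10 a lower one, with log2 differences between -2.46 (NUP214) and 1.97 (NUP43) and a median of -0.48. Among the receptors it was 9 and 9, between -1.95 (IPO5) and 2.89 (XPO1), with a median of -0.21. The median over all tested genes was -0.49 and over coding genes -0.47. All 37 of the 95% intervals included 0, and they were wide. That of NUP188 ran from -5.67 to 1.06 and that of NUP98 from -3.87 to 2.90. With 3 libraries a group, differences within such bounds were not excluded.

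**Figure D2:**
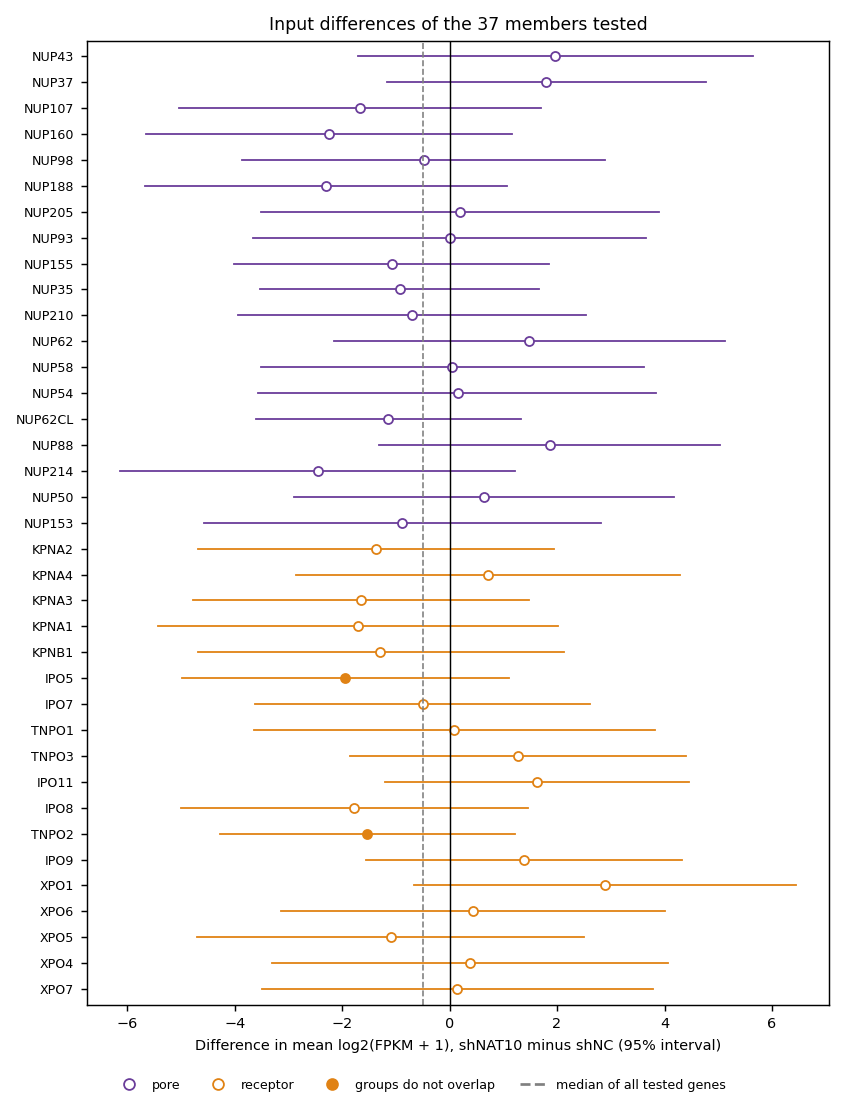
Difference in mean log2(FPKM + 1), shNAT10 minus shNC, for the 37 tested genes with 95% intervals from limma (rows are genes; purple pore, orange receptor; filled points mark genes whose groups do not overlap; dashed line, median of all tested genes). Every interval crosses 0, from NUP214 at -2.46 to XPO1 at 2.89.

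Pore and receptor genes were then set against each other within each input. The median log2(FPKM + 1) of the 22 pore genes minus that of the 23 receptor genes was -0.33, -0.15 and 0.44 in shNAT10 (mean -0.01 ± 0.40, SD, n = 3) and -0.90, 1.55 and 2.70 in shNC (mean 1.12 ± 1.84, SD, n = 3). The pore median was the higher one in 3 of the 6 inputs, and the groups overlapped. Over all 6 inputs the difference was 0.55 ± 1.34 (SD), and it was -0.55 ± 1.51 over the 37 genes with a mean of at least 1 FPKM. With the mean over all 45 genes in place of the median it was 0.08 ± 0.45 (SD). Each of these values was smaller than its SD, so no direction is read from them. The median pore gene stood at 0.535, 0 and 0.744 FPKM in shNAT10 and at 1.08, 3.74 and 7.67 FPKM in shNC. The median receptor stood at 0.929, 0.111 and 0.266 FPKM in shNAT10 and at 2.87, 0.617 and 0.312 FPKM in shNC. Over the 8140 coding genes with a mean of at least 1 FPKM the median was 0.360, 0.297 and 0.604 FPKM in shNAT10. In shNC it was 2.79, 2.41 and 2.34 FPKM. That filter was not applied to the pore and receptor medians, so the levels are not like for like. Within each set, pore genes and these coding genes had a lower median in every shNAT10 library than in every shNC library. The shNAT10 libraries also held fewer fragments (ratio of means 0.464), and the part of depth in these medians was not tested. The highest receptor stood above the highest pore gene in all 6 inputs: the highest receptors were XPO1, KPNA2 and TNPO1 in shNAT10 (54.1, 95.2 and 44.4 FPKM) and IPO5, KPNA2 and IPO5 in shNC (67.5, 74.2 and 54.2 FPKM). TNPO1 is named for this alone. The highest pore genes reached 42.7 to 43.8 FPKM in shNAT10 and 32.5 to 34.0 FPKM in shNC.

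**Figure D3:**
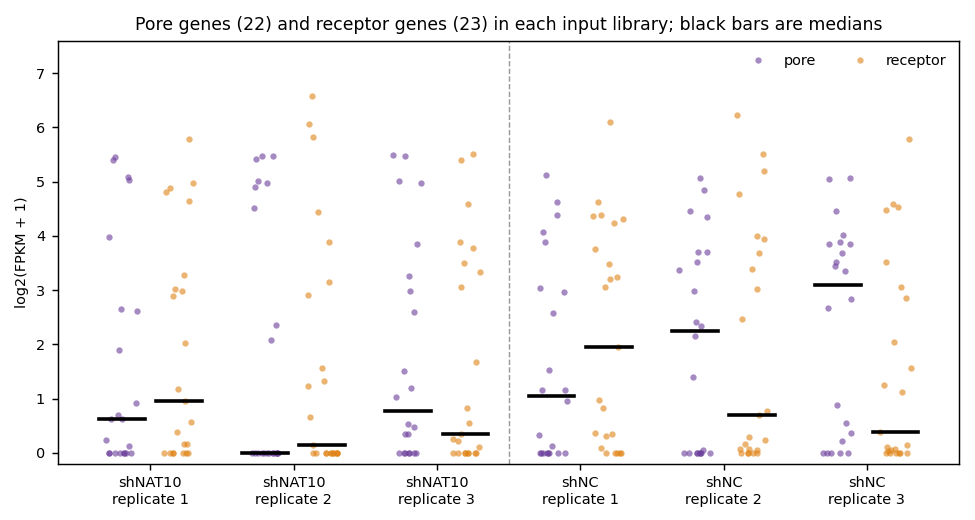
Level of every pore gene (purple, 22) and receptor gene (orange, 23) in each input as log2(FPKM + 1), with the median as a black bar; the 3 shNAT10 libraries are left of the dashed line and the 3 shNC libraries right of it. The pore bar lies above the receptor bar in shNAT10 replicate 3 and in shNC replicates 2 and 3, and below it in the other 3.

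Other genes of the pathway, listed with earlier results of these data known, were counted in the same fit. Of 33 found in the table, 27 were tested and 0 passed the limma test, against 0.190% of all genes, while 1 had an unadjusted p under 0.05. The export receptor of importin alpha, CSE1L, named after its values were seen, was that one, at 0.568, 0 and 0 FPKM in shNAT10 against 12.8, 90.1 and 11.2 FPKM in shNC (log2 difference -4.42 ± 1.86, SE; limma adjusted p = 0.754). Receptors under other names (4) had a median difference of -2.29, and 2 of them, CSE1L and SNUPN, the adaptor for spliceosomal particles, had every shNAT10 value below every shNC value. Over the 27 there were 3 with all shNAT10 values below and 1 (RANBP2) with all above the shNC values, beside 6.72% and 2.89% of all tested genes. The 10 tested pore genes under other names had a median of -0.96, with 3 higher and 7 lower in shNAT10. RANBP2, the large filament protein of the cytoplasmic face, was among the 3, at 29.4, 29.7 and 3.73 FPKM in shNAT10 against 3.29, 0 and 2.28 FPKM in shNC. The 5 tested genes of the Ran cycle had differences from 0.02 to 2.35, with a median of 0.48. RCC1, the exchange factor that loads Ran with GTP, had 0, 58.7 and 60.5 FPKM in shNAT10 and 0.380, 19.3 and 0 FPKM in shNC. The messenger RNA export genes (8 tested) had a median of 0.36, with ALYREF, an adaptor of NXF1, the most abundant at 96, 170 and 7.43 FPKM in shNAT10 against 1.88, 143 and 0 FPKM in shNC.

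The peak table asks which of these transcripts carried ac4C regions that differed between the hairpins. The authors' deposited table held 2364 peaks in 1931 genes, and 23 of them lay in 15 transport genes: 10 peaks in 7 pore genes and 13 peaks in 8 receptor genes. Each peak came with the authors' fold enrichment, and with the log2 change of a differential test whose numerator was not stated, so signs are given as deposited and no hairpin is called higher. Of these 23 peaks in the authors' deposited table, 15 had a negative change and 8 a positive one, which is 65.2% negative against 61.7% of all peaks. The median fold was 7.89 for pore genes, 15.1 for receptors and 10.5 for the whole authors' deposited table. All 23 peaks lay within the RefSeq gene of the same symbol on GRCh38. Peaks of several blocks run over introns, so their printed span is longer than the RNA they cover.

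Pore peaks and receptor peaks differed in where they lay. Of the 10 pore peaks, 9 were annotated to coding sequence and 1 to a 3′ UTR. Of the 13 receptor peaks, 5 lay in coding sequence, 7 in a 3′ UTR and 1 in the 5′ UTR of IPO7. Over all peaks of the authors' deposited table, 59.5% were coding and 21.3% in a 3′ UTR. Several receptor peaks share a gene, so they are not independent, and the contrast is given as counts with no test.

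Among the pore genes, the authors' deposited table gave NUP188 the largest positive change, 7.77, for a coding peak at chr9:129006365-129006648, 448 nt before the end of the gene. NUP210 had a 3′ UTR peak at chr3:13316325-13316714 (change -5.67) and a coding peak at chr3:13321589-13321709 (change -5.24) in the authors' deposited table. For NUP98 the authors' deposited table listed 2 coding peaks, at chr11:3699240-3702693 and chr11:3713897-3720863, with changes of -3.90 and -4.48 and folds of 5.29 and 46.1. NUP62 likewise had 2 coding peaks in the authors' deposited table, at chr19:49908352-49908592 and chr19:49909281-49909610, with changes of -5.75 and -4.24. The second of them held 7 sites of the spaced cytidine motif (CNN in 4 repeats) listed there, a number that 28 of all peaks reached. Single coding peaks lay in NUP93 (chr16:56836612-56837712, change -5.63), NUP214 (chr9:131151794-131162996, change 3.29) and NUP58 (chr13:25320569-25326933, change 2.5) in the authors' deposited table. The NUP214 and NUP58 peaks had the weakest differential FDR of the pore peaks, 0.0162 and 0.0324.

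Of all 2364 peaks, the one with the highest fold was that of IPO9. The authors' deposited table put it in the 3′ UTR at chr1:201877858-201878068 with a fold of 2860, a change of -8.21 and a differential FDR of 0.0295. It held 0 motif sites. IPO9 had a mean input level of 1.66 FPKM, among the lowest of the tested transport genes, with 1 to 10 fragments over the whole gene in each shNC input. The sources used here do not say what the fold was taken against or how low coverage was treated. The part of low input in this fold was not tested. IPO4 is a like case, with a coding peak (chr14:24185931-24186785, fold 4.19, change -3.46 in the authors' deposited table) although it was listed at 0 in all 6 inputs.

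IPO7 had 3 peaks, all positive in the authors' deposited table: the 5′ UTR peak whose first 30 bases are shown above (chr11:9384652-9392241, 2 blocks, change 2.40), a coding peak (chr11:9440485-9442144, change 4.05) and a 3′ UTR peak (chr11:9446599-9446779, change 7.29). The change and the fold (3.93, 15.1 and 52.4) were each higher toward the 3′ end. The 5′ peak held 1 motif site, 116 nt after the transcript start, and the other 2 peaks held none. KPNB1 had a coding peak (chr17:47652697-47658516) and a 3′ UTR peak (chr17:47683316-47683586) with nearly equal changes of -3.98 and -3.97 in the authors' deposited table. KPNA6 and XPO1 held peaks of both signs. In KPNA6 the coding peak (chr1:32170764-32170914) had a change of 4.58 and the 3′ UTR peak (chr1:32173517-32173756) one of -4.49 in the authors' deposited table. In XPO1 both lay in the 3′ UTR, at chr2:61483076-61484131 with 3.29 and at chr2:61485778-61485957 with -4.38 in the authors' deposited table. Single negative peaks were listed for XPO4 (3′ UTR, chr13:20781529-20782069, change -4.78) and IPO8 (coding, chr12:30688738-30695716, change -3.30) in the authors' deposited table.

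**Figure D4:**
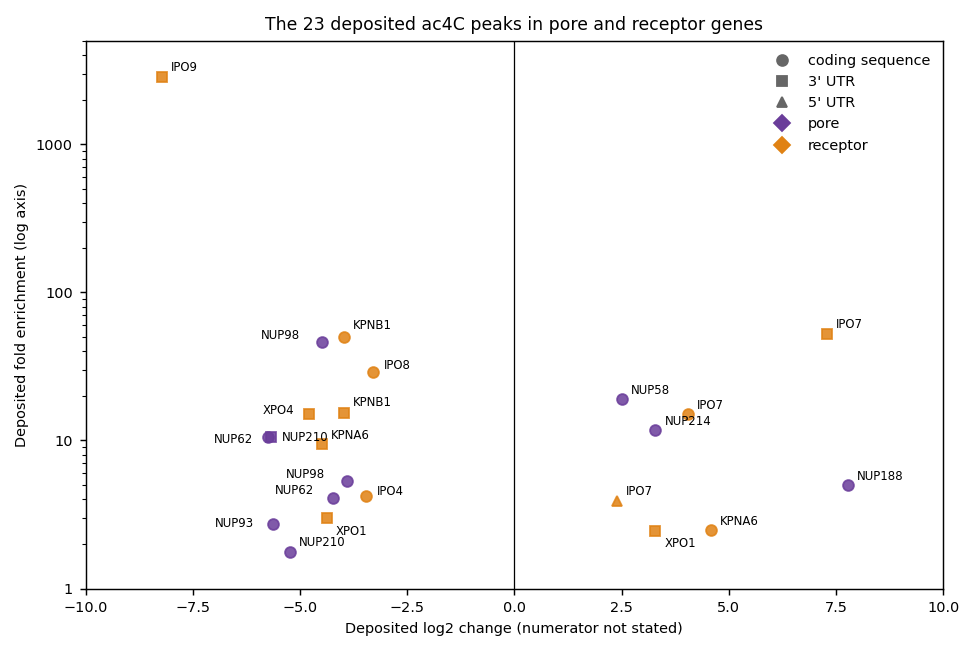
Fold enrichment (log axis) against log2 change of the 23 peaks in transport genes, as given in the authors' deposited table with the numerator of the change not stated (purple pore, orange receptor; circles coding sequence, squares 3′ UTR, triangle 5′ UTR). IPO9 stands alone at a fold of 2860 and a change of -8.21, and the 3 IPO7 peaks lie on the positive side.

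The table listed sites of its motif, a cytidine followed by any 2 bases, in 4 repeats, in 13 of the 23 peaks (56.5%), against 62.6% of all peaks. Per kilobase of peak there were 5.15 sites in pore genes, 2.49 in receptors and 5.62 in the whole authors' deposited table. Coding peaks of transport genes held 5.17 sites per kilobase and their 3′ UTR peaks 0.899, against 6.03 and 4.18 over all peaks. Within coding peaks the density was 5.94 in pore genes and 3.91 in receptors.

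Among genes with a mean of at least 1 FPKM, 13 of 37 transport genes had a peak (35.1%; 7 of 19 pore genes and 6 of 18 receptors), against 1550 of 8140 coding genes (19.0%). At 10 FPKM or more it was 8 of 14 against 25.9% of coding genes, from 5 to 10 FPKM 2 of 12 against 18.6%, and from 1 to 5 FPKM 3 of 11 against 13.1%. Transport genes had a longer median recovered length (7619 against 4842 nt for coding genes) and a somewhat higher median mean level (8.22 against 6.59 FPKM). Genes with a peak were longer by this measure in both sets (medians of 9905 and 5829 nt) than genes without (6470 and 4631 nt). A recovered length is the smallest that makes all fragments whole. It can fall short of the true length, mostly for genes above 0 in few libraries. The part of length and level in the share with a peak was not tested. Of the other pathway genes, 7 of 33 had a peak (11 peaks). With no filter on level, it was 15 of 45 transport genes (33.3%) and 9.29% of all coding genes listed. The highest fold among the other pathway genes was 244, for a coding peak of RANBP2 (chr2:108762194-108763415) with a change of 10.00 in the authors' deposited table. Next to it lay a second one with -5.75 (chr2:108764043-108764372). RANGAP1, which makes Ran hydrolyse its GTP, had a coding peak with a fold of 67.1, a change of 3.13 and 7 motif sites in the authors' deposited table. Coding peaks of RANBP3, a cofactor of XPO1, and of THOC2, a subunit of the messenger RNA export complex TREX, had changes of -2.96 and 4.84 in the authors' deposited table. Both RCC1 peaks were positive (8.73 and 1.36), and both peaks of SNUPN (-4.07 and -4.57) and of RANBP1 (-5.42 and -5.98) negative in the authors' deposited table.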

How the data were processed

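The labels described 12 libraries of DLD1 cells. Gene values were FPKM as deposited for the 6 inputs. Columns named NC were matched to shNC by title and the other ones to shNAT10 by elimination, which left 0 per-sample columns over. Per the file headers, the authors' deposited peak table gave a fold enrichment (a ratio), p-values and FDR as log10 scores, and a log2 change. The submitters' processing notes name cutadapt 2.5, HISAT2 2.1.0 and HOMER 4.10.4 and the builds GRCh38 and GRCm38, with no role for each. Peak positions were taken as half-open GRCh38 intervals, since 98.4% of 2190 peaks lay in the RefSeq gene of their symbol, and are printed from 1. The sources used here do not say which tool counted fragments or called peaks, or whether replicates were pooled.

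Inputs were compared by limma 3.58.1 in R 4.3.3 (lmFit, eBayes with trend) on log2(FPKM + 1). Genes entered with a mean of 1 FPKM or more. P-values were adjusted by Benjamini-Hochberg over all 10517 genes, with a threshold of 0.05. A fold on this scale understates the change of low genes. With 213 prior degrees of freedom, an SE rests mostly on genes of like level. Whole fragments were recovered from the FPKM values (15014 genes, all whole within 0.001 fragments, with gene lengths sought to make them so) and served for depth, lengths and voom. Intervals and fragment counts cover no PCR copies. Scripts were tested on simulated data. There, fragments came back exactly for 57.6% of genes above 0 in 1 library and for 99.4% of genes above 0 in 6. Between libraries of the same replicate number, deviations from group means correlated at 0.00, -0.02 and 0.01, so no shared replicate effect was seen. These correlations cannot tell whether the libraries were prepared as pairs.

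The genes, the pathway and marker lists and the rule for named genes were chosen with earlier results of these data known. Named with values were genes past the test or with a peak, the 5 pore and 5 receptor genes of highest mean, and the 4 largest differences in each direction. Alternatives were other pseudocounts, filters, scalings, tests and library sets.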

Additional observations from a re-analysis of the deposited data

How the results depend on the processing

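No pore or receptor gene passed the adjusted p threshold under any alternative run (0 throughout). The number of all genes called, 20, became 0 with no filter on low values (340 at an unadjusted p under 0.05), 10 with a mean of at least 5 FPKM, 95 by voom on recovered fragments and 0 without shNAT10 replicates 2 and 3 (1139 at an unadjusted p under 0.05). Leaving out 1 library at a time gave 1 to 34 calls, with 12 without shNAT10 replicate 1, 34 without shNAT10 replicate 2, and 1 without each shNC library. The pore median of -0.48 became 0.15 at a mean of at least 5 FPKM, 0.12 after quantile normalization and -1.18 without shNAT10 replicates 2 and 3. Single libraries left out gave -1.14 (shNAT10 replicate 1) to -0.17 (shNAT10 replicate 3). For the receptors, the median of -0.21 became -0.65 with a pseudocount of 0.1, 0.40 after quantile normalization, -0.96 by voom and -1.17 without shNAT10 replicates 2 and 3, and ranged from -1.08 (without shNAT10 replicate 3) to -0.16 over single libraries left out. Scaling moved the median difference of all genes too, from -0.49 to -0.65 on the TPM scale and -0.08 after quantile normalization, and the calls from 9 higher and 11 lower to 6 and 12 on the TPM scale, 7 and 16 after quantile normalization and 19 and 76 by voom. Other causes were not tested.

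The NAT10 difference of 1.48 became -1.81 without shNAT10 replicates 2 and 3, and ranged from 0.62 to 3.13 over single libraries left out. Pore minus receptor level over the 6 inputs, 0.55, was -0.55 over genes with a mean of at least 1 FPKM, -0.59 after quantile normalization of those genes, and 0.12 to 0.84 over single libraries left out, with the lowest value without shNC replicate 3. Transport genes with a peak numbered 13 of 37 (35.1%, against 19.0% of coding genes with a mean of at least 1 FPKM). At a differential FDR under 0.01 the number was 9 (24.3% against 15.9%), and at a fold of at least 10 it was 10 (27.0% against 10.6%). With the replicate block, 21 genes were called, and the NAT10, pore and receptor values were 1.48, -0.48 and -0.21, so it changed no call of a transport gene. In fits that left 1 shNAT10 library, that library was assumed to vary like the shNC group. The part of depth in the 91 of 270 values at 0 was not tested.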
